A study of Mus musculus with 6 samples.

Results

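Genes of the Fanconi anaemia pathway and of homologous recombination were followed in RNA from heads of mouse embryos at embryonic day 8.5. The mutant embryos had Sf3b4, which encodes a subunit of the spliceosome's SF3B complex, deleted in neural crest cells, and they were set against wild-type embryos. There were 3 mutant pools and 3 wild-type pools, each made of 3 heads taken before any defect of shape appeared. The sample titles call the mutants homozygous nulls while the genotype entries call them neural crest mutants, and no source used here names the Cre driver, the alleles or the strain. The set holds 32 genes, named by symbol, of 54532 gene IDs in the files, and all 32 were found and passed the filter on low counts with 14008 genes in all. The members were chosen by pathway and by their counts in the mutant and wild-type pools, in one and the same contrast as below, so the differences of its members are given as a description, with no p-value, and nothing is drawn from how many of them differ.

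Cells use the Fanconi pathway to remove crosslinks that tie the strands of DNA together. A core complex attaches ubiquitin to the FANCD2-FANCI pair, the marked pair draws nucleases to the lesion, and the resulting break is repaired by homologous recombination, which needs BRCA1, PALB2 and BRCA2. The MRN complex senses and trims broken ends, and a ring-shaped clamp with its loader turns on the damage checkpoint. Rapidly dividing embryonic tissue is known to depend on some of these genes.

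The sequences just upstream of 5 of the 6 members called lower in mutant heads are shown because they are the stretch of these genes where sites for cell cycle factors would be looked for. They come from the RefSeq promoter table (build GRCm38.p6), which held 24 of the 32 members, and are written 5′ to 3′ on the strand of the gene. In Bard1 and Brca2 capitals mark a match to an E2F word (TTTCCCGC, TTTCGCGC, TTTGCCGC or TTTGGCGC, on either strand). In Fanca, Fancm and Rad54l they mark a CCAAT word, the core of NF-Y sites. The Bard1 stretch, on the minus strand at chr1:71103147-71103222, runs from 250 to 175 bases before the RefSeq start. The Brca2 stretch, on the plus strand at chr5:150522371-150522620, covers the 250 bases before the start. The other stretches cover the 100 bases before the start, for Fanca at chr8:123318577-123318676 (minus strand), for Fancm at chr12:65075503-65075602 (plus strand) and for Rad54l at chr4:116123691-116123790 (minus strand).
Bard1: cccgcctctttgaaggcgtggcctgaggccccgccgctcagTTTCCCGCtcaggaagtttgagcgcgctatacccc
Brca2: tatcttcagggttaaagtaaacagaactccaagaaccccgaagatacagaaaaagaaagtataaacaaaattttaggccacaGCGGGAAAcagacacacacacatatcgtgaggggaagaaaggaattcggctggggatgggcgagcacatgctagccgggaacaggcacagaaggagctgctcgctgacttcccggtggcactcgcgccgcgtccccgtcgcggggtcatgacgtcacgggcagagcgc
Fanca: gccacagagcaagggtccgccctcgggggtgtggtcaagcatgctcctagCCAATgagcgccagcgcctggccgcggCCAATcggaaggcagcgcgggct
Fancm: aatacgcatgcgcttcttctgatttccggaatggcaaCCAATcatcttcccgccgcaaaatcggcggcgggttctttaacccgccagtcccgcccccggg
Rad54l: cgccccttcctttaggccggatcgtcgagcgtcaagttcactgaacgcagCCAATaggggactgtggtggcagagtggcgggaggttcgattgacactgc
Within the windows from 250 bases before to 50 bases after the start, 4 of 24 members (16.7%) held an E2F word, namely Bard1, Brca2, Fancg and Rad51c, against 4.83% of 10125 tested genes in the table. A CCAAT word stood in 14 of 24 members (58.3%), against 43.4% of the tested genes. The CHR word TTTGAA, searched on both strands, was found in 2 members (8.33%), Bard1 and Rad51b, and in 13.9% of the tested genes. In Rad51b it stood only in the window of the later of its listed starts, downstream of that start. The E2F and CHR words in Bard1 did not overlap. A match is a string of letters and not a shown binding site. Fanci, the other member called lower, held none of the 3 words in its window. Of the 6 members called lower, 2 held an E2F word (33.3%), 3 a CCAAT word (50%) and 1 the CHR word (16.7%). Fancg and Rad51c, which also held an E2F word, were not called.

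Total counts ran from 7420956 to 12251910 in mutant pools and from 6930827 to 11797020 in wild-type pools. Levels are in CPM, counts scaled to library size after TMM normalisation. Sf3b4 itself stood at 56.1, 64.2 and 60.9 CPM in mutant pools and at 77.7, 72.8 and 63.9 CPM in wild-type pools. Its groups overlapped, and the difference of -0.24 on the log2 scale (SE 0.0918) missed the threshold (edgeR quasi-likelihood test, adjusted p = 0.128). Neural crest is only part of the head, and in such pools fewer cells of a type and less RNA per cell cannot be told apart. Defining markers of neural tube, mesenchyme, crest and surface ectoderm were all read in every group, and 4 of 5 yolk sac markers stayed below the filter on low counts. The summed level of 6 crest markers was 212 to 247 CPM in mutant pools and 301 to 325 CPM in wild-type pools; all 6 had negative fold changes and 3 of them were called lower. The 5 surface ectoderm markers summed to 398 to 455 CPM in mutant pools and 344 to 370 CPM in wild-type pools. None of these 5 was called, and only Trp63 (-0.18) had a negative fold change. The 5 endothelial markers summed to 218 to 231 CPM in mutant pools and 182 to 201 CPM in wild-type pools. Among them only Kdr was called, as higher (0.31). Sums of the other marker lists overlapped between genotypes. The part of the crest, ectoderm and endothelial differences in the results on repair genes was not tested. Mutant replicate 3 and wild-type replicate 1 held 1 read each from 4 Y-linked genes, against 491 and 580 in the other mutant pools and 344 and 664 in the other wild-type pools.

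Of the 32 genes, 6 were called lower in mutant heads (Brca2, Fanca, Rad54l, Fanci, Fancm and Bard1), 1 was called higher (Nbn) and 25 were not called. A call means an adjusted p under 0.05 in the edgeR test over all 14008 genes, where 6.52% of genes were called, 2.65% higher and 3.88% lower. Because the set was chosen with this contrast known, nothing is read from the members' share of 21.9%. The median log2 fold change of the 32 was -0.10, beside 0.00 over all tested genes, and 19 of 32 were negative, beside 49.7% of all tested genes. In 13 members the groups did not overlap, with the mutant pools below in 10 and above in 3, where 28.3% of all tested genes were so separated, 14.4% with mutant pools below and 13.8% above. The differences were small, from -0.45 to 0.34 on the log2 scale. The calls depended on the pools used, as did those over all tested genes. With all pools 371 genes were higher and 543 lower, beside 107 and 123 without mutant replicate 1. They were 156 and 236 without mutant replicate 2, 216 and 227 without mutant replicate 3, and 184 and 183 without wild-type replicate 2. Without wild-type replicate 1 (409 and 580) or 3 (890 and 920) the calls of members did not change. Without mutant replicate 1 none of the 32 was called, without mutant replicate 2 only Brca2 was, and without mutant replicate 3 Brca2, Fanci and Fancm were. The log2 fold changes of the 6 lower members still ran from -0.45 to -0.30 without mutant replicate 1, and that of Nbn was 0.30. Without wild-type replicate 2 only Brca2 was called, and 4 were lower and none higher when only the 4 pools holding Y-linked reads were used. With DESeq2 the calls of Bard1 and Nbn were lost, and with limma-voom that of Fanca.

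**Figure D1:**
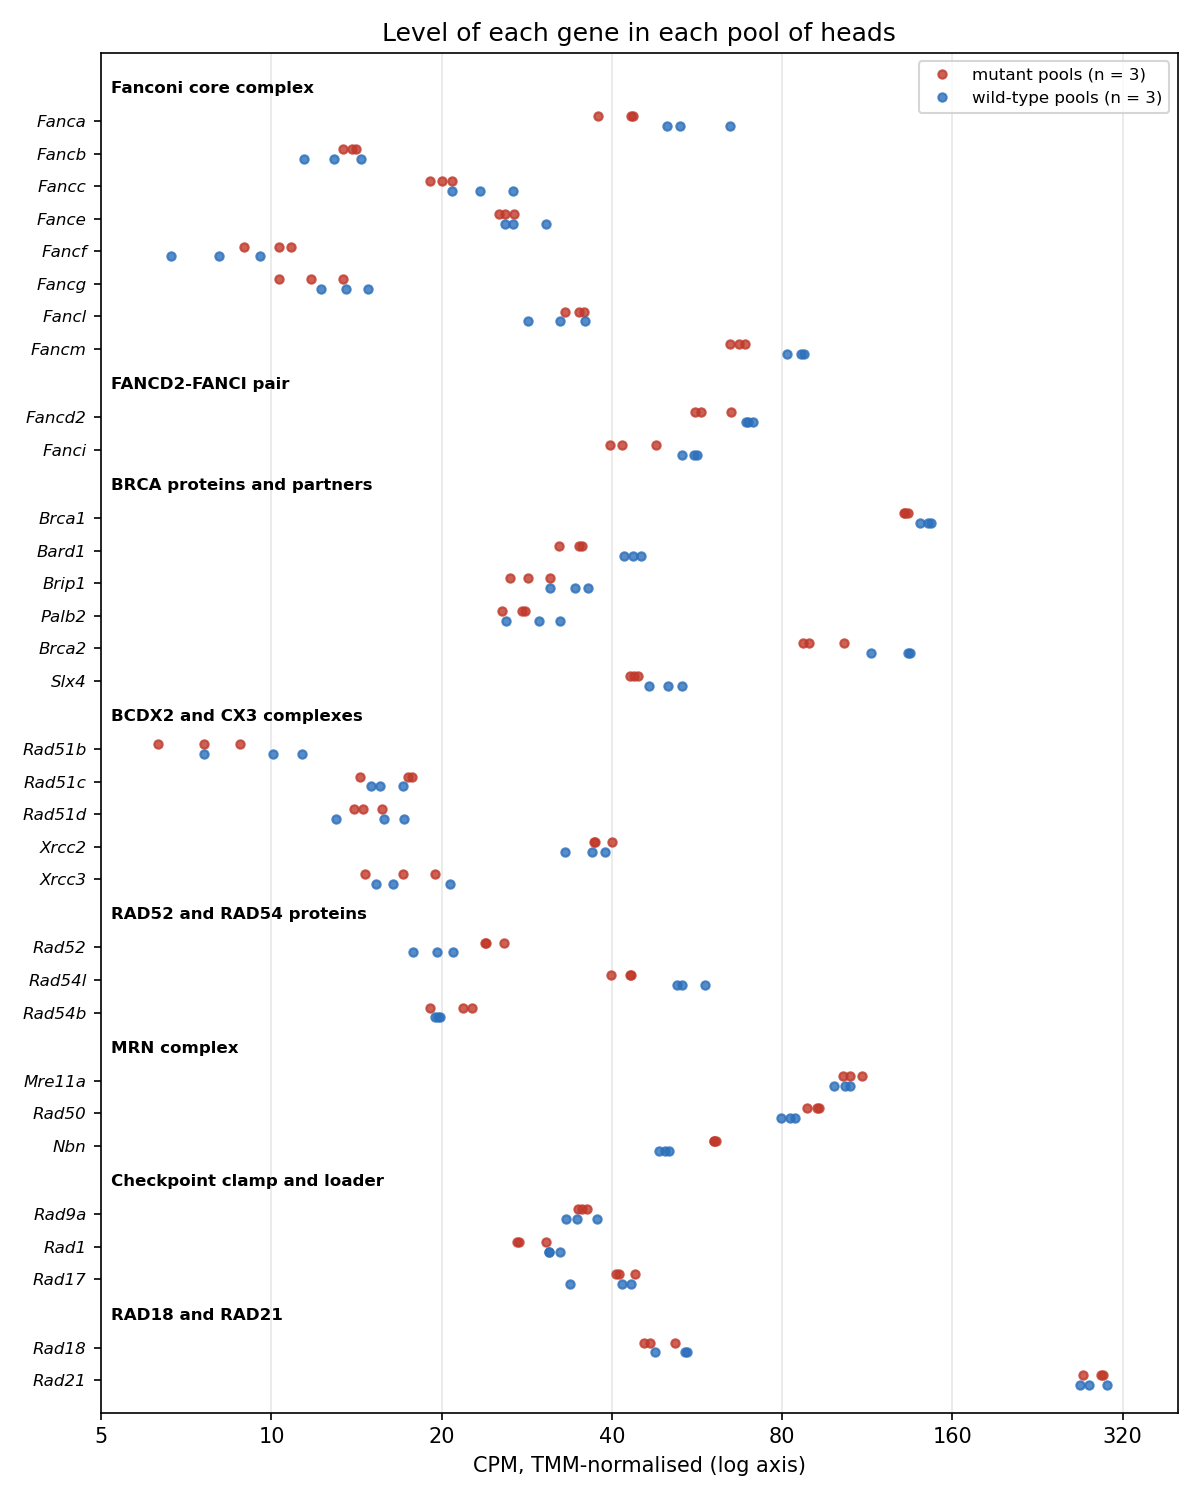
Level of each of the 32 genes in CPM (TMM-normalised, log axis) in the 3 mutant pools (red, upper row of each gene) and the 3 wild-type pools (blue, lower row); each point is 1 pool. Brca2, Fancm, Bard1 and Rad54l show mutant points entirely left of the wild-type points, and Nbn the reverse.

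The Fanconi core complex, whose 8 members build the ubiquitin ligase on DNA, was uneven. Fanca (ENSMUSG00000032815, mm10 chromosome 8, 123268300 to 123318576, minus strand), a scaffold subunit, was read at 43.6, 43.2 and 37.8 CPM in mutant pools and at 52.7, 64.6 and 49.95 CPM in wild-type pools. All mutant pools lay below all wild-type pools, and the wild-type pools spread more widely. The log2 fold change was -0.41 (SE 0.105). Fancm (ENSMUSG00000055884, chromosome 12, 65075603 to 65132058, on the plus strand), the DNA translocase that anchors the complex, had 67.1, 64.7 and 68.7 CPM in mutant pools and 81.5, 86.3 and 87.5 CPM in wild-type pools. Its groups were tight and well apart, with a log2 fold change of -0.35 (SE 0.0766), or 21.5% lower. The gene for FANCL, the catalytic subunit, averaged 34.6 ± 1.41 CPM in mutant pools and 32.2 ± 3.76 CPM in wild-type pools (SD, n = 3 each), and its groups overlapped. Overlap was also seen in Fancb (log2 fold change 0.11), Fancc (-0.23), Fance (-0.10), Fancf (0.29) and Fancg (-0.20). Fancf, a gene with 1 exon, had 10.8, 8.94 and 10.3 CPM in mutant pools against 8.06, 6.64 and 9.56 CPM in wild-type pools, so the highest wild-type pool stood above the lowest mutant pool. Fancb is the only member on the X chromosome.

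Both genes of the pair that the core complex marks were lower in every mutant pool. Fanci (ENSMUSG00000039187, chromosome 7, 79391929 to 79450264, on the plus strand) had 39.7, 41.7 and 47.9 CPM in mutant pools and 56.5, 55.8 and 53.1 CPM in wild-type pools, a log2 fold change of -0.36 (SE 0.0919). Fancd2 had 56.1, 57.5 and 64.9 CPM in mutant pools and 71.1, 69.5 and 69.1 CPM in wild-type pools. Its groups did not overlap, mutant replicate 3 was the closest to the wild-type pools in both genes, and the log2 fold change of -0.24 (SE 0.0835) was not called.

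All 6 genes of the BRCA group had negative fold changes, 2 of them called. Over all tested genes 49.7% had negative fold changes and 6.52% were called. The 6 genes are long, with a median exonic length of 7555.5 bases. In the length classes that hold them (split as described below), 53.25% and 67.9% of all tested genes had negative fold changes. Brca2 (ENSMUSG00000041147, chromosome 5, 150522630 to 150570329, plus strand), whose product acts on single-stranded DNA at resected breaks, was read at 89.2, 103 and 86.9 CPM in mutant pools and at 115, 133 and 134 CPM in wild-type pools. Mutant replicate 2 was the highest of its group and wild-type replicate 1 the lowest of the other, and they were still apart. The log2 fold change was -0.45 (SE 0.0868), or 27.0% lower, and among the alternatives run the call was lost only without mutant replicate 1. Bard1 (ENSMUSG00000026196, chromosome 1, 71027498 to 71103146, minus strand), the obligate partner of BRCA1 in its ubiquitin ligase, was read at 35.4, 34.9 and 32.2 CPM in mutant pools and at 43.6, 45.1 and 42.0 CPM in wild-type pools. Its log2 fold change was -0.34 (SE 0.0893), with groups apart by more than their own width. Brca1 itself was much closer between genotypes, at 132, 131 and 133 CPM in mutant pools and 147, 140.0 and 145 CPM in wild-type pools. The groups of Brca1 did not overlap, yet the difference was only 8.27% (log2 fold change -0.12, SE 0.0685) and was not called. Slx4, which encodes the nuclease scaffold, had 43.8, 44.5 and 43.1 CPM in mutant pools and 50.3, 53.1 and 46.4 CPM in wild-type pools. Its mutant pools lay below the others without a call (-0.19). Brip1, a helicase gene (-0.24), and Palb2, the bridge between BRCA1 and BRCA2 (-0.11), had overlapping groups.

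The genes of the BCDX2 and CX3 complexes, which act in strand exchange, showed no call among 5 genes and no separated groups. Xrcc2 averaged 38.2 ± 1.63 CPM in mutant pools and 36.3 ± 2.99 CPM in wild-type pools, and Rad51c averaged 16.5 ± 1.88 CPM in mutant pools and 15.9 ± 1.06 CPM in wild-type pools (SD, n = 3 each). Rad51d and Xrcc3 had log2 fold changes of -0.05 (SE 0.133) and -0.04 (SE 0.141). Rad51b, the lowest member in CPM, had 8.78, 6.31 and 7.58 CPM in mutant pools and 7.60, 11.3 and 10.1 CPM in wild-type pools. Its fold change of -0.33 was of the size of those called, with an SE of 0.182.

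The genes of RAD52, RAD54 and its relative RAD54B went different ways. Rad54l (ENSMUSG00000028702, chromosome 4, 116094264 to 116123690, minus strand), which encodes the RAD54 motor of strand exchange, was read at 43.0, 39.8 and 43.2 CPM in mutant pools and at 52.2, 53.3 and 58.4 CPM in wild-type pools. The groups were apart, with a log2 fold change of -0.38 (SE 0.0878). Rad52, a gene of a DNA annealing protein, had 23.9, 25.8 and 24.0 CPM in mutant pools and 17.8, 20.9 and 19.6 CPM in wild-type pools. Its log2 fold change of 0.34 (SE 0.107) was larger than that of Nbn and its groups did not overlap, but it was not called. Rad54b had a log2 fold change of 0.11 (SE 0.109). Fsbp, on the same strand, shares 35.8% of the exonic bases of Rad54b, where reads of the pair cannot be told apart.

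The MRN complex was the group of members without a negative fold change. Nbn (ENSMUSG00000028224, chromosome 4, 15957925 to 15992589, plus strand), which encodes the subunit that recruits the checkpoint kinase ATM, was read at 60.6, 60.7 and 61.1 CPM in mutant pools and at 49.6, 48.5 and 50.5 CPM in wild-type pools. Of the 32 genes it had the smallest SD of log2 CPM within genotypes (0.021), and the log2 fold change was 0.29 (SE 0.0799), or 22.7% higher. Rad50, the ATPase that tethers ends, had 92.9, 92.3 and 88.4 CPM in mutant pools and 79.6, 82.5 and 84.2 CPM in wild-type pools. Its groups did not overlap and the log2 fold change of 0.15 was not called. Mre11a, the nuclease gene, averaged 106 ± 4.15 CPM in mutant pools and 103 ± 3.33 CPM in wild-type pools.

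No call was made among the genes of the checkpoint clamp and its loader or in Rad18 and Rad21. Rad9a and Rad1, subunits of the clamp, had log2 fold changes of 0.01 (SE 0.0917) and -0.15 (SE 0.0959), and Rad17, the loader gene, 0.09 (SE 0.103). In Rad1 the mutant pools (27.4, 27.1 and 30.6 CPM) lay just below the wild-type pools (31.0, 30.9 and 32.4 CPM). Rad18, the ubiquitin ligase gene of damage bypass, had -0.12 (SE 0.091). Rad21, which encodes the ring-closing subunit of cohesin, had 0.02 (SE 0.074), from 293, 295 and 273 CPM in mutant pools and 269, 279 and 301 CPM in wild-type pools.

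**Figure D2:**
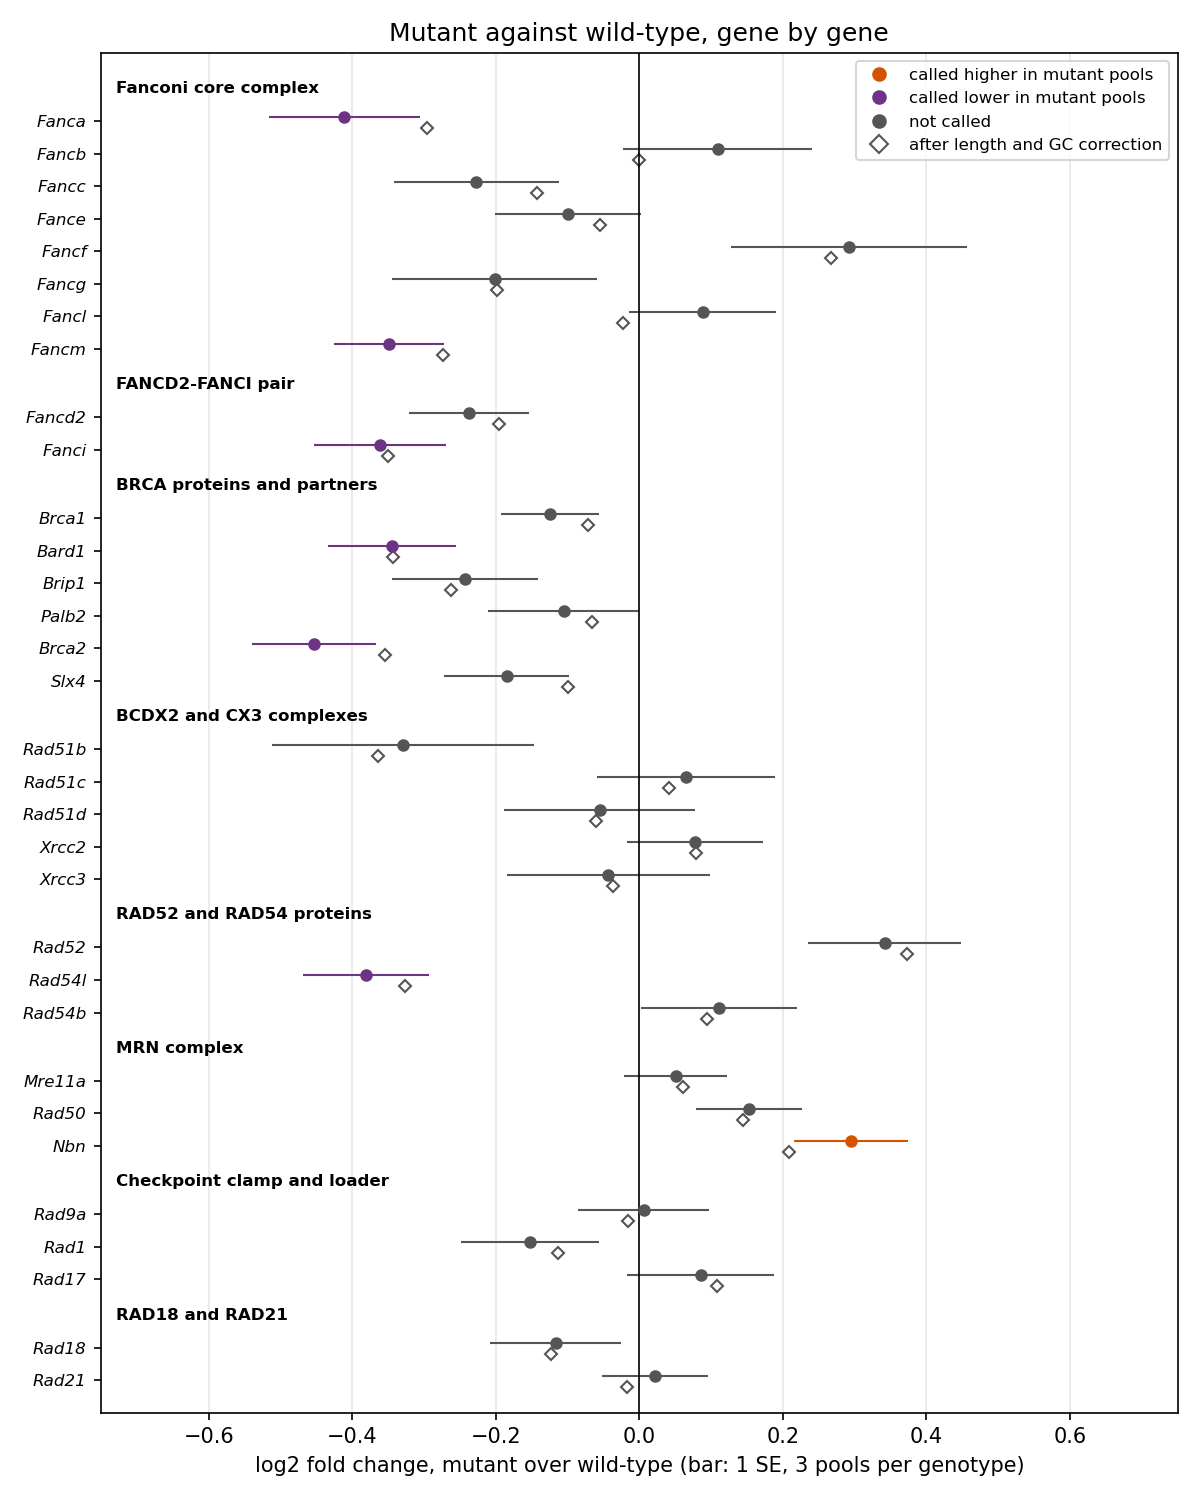
Log2 fold change of each gene, mutant over wild-type, with bars of 1 SE (3 pools per genotype), coloured by call; open diamonds show the value after the correction for exonic length and GC content. Brca2 is the lowest at -0.45 and Rad52 the highest at 0.34, and the 3 genes of the MRN complex lie right of 0.

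Levels differed far more between members than between genotypes. Per kilobase of exonic sequence, averaged over the 6 pools, Rad21 was the highest at 67.3 CPM per kilobase, followed by Nbn (21.8), Mre11a (17.6), Brca1 (16.2) and Rad50 (16.1). Rad21 thus stood well apart from the rest, while Brca1 and Rad50 were nearly level. The lowest were Rad51b (2.29), Fancc (2.61) and Fancg (3.34 CPM per kilobase). The median member had 6.27 CPM per kilobase, beside 5.49 over all tested genes.

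Members that were lower tended to be long. The 6 called lower had a median exonic length of 8234 bases and the 25 not called had 5375 bases. Nbn, the member called higher, had 2533 bases, and the median over all tested genes was 4354.5 bases. Over the 32 members log2 fold change and log2 exonic length had a Pearson r of -0.59 (Spearman rho -0.59), a description across genes that share the same 6 libraries. The trend was not confined to the set, since r was -0.20 (rho -0.27) over 12566 tested coding genes. With the length of the longest coding sequence the set and those genes were closer. There r was -0.47 (rho -0.42) over the members and -0.25 (rho -0.34) over the 12566 genes. When tested genes were split by length into 5 classes of equal size, the longest held 9 members, of which 4 were called lower and 8 had negative fold changes. In that class 10.4% of all tested genes were called lower and 67.9% had negative fold changes. The median log2 fold change of the class was -0.10, beside -0.24 for its 9 members. After the trend of tested genes with length and GC content was removed from each pool, the same 6 members were called lower. Brca2 stood at -0.35 (SE 0.0664), Bard1 at -0.34 and Fanca at -0.30, and the call of Fanca only just passed. Over the 32 members the corrected fold changes still had a Pearson r of -0.46 (rho -0.47) with exonic length. Nbn was no longer called (0.21) and Rad52 was (0.37, SE 0.1002). The correction also turned the balance over all genes, to 660 higher and 566 lower, where the uncorrected fit had 371 higher and 543 lower.

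**Figure D3:**
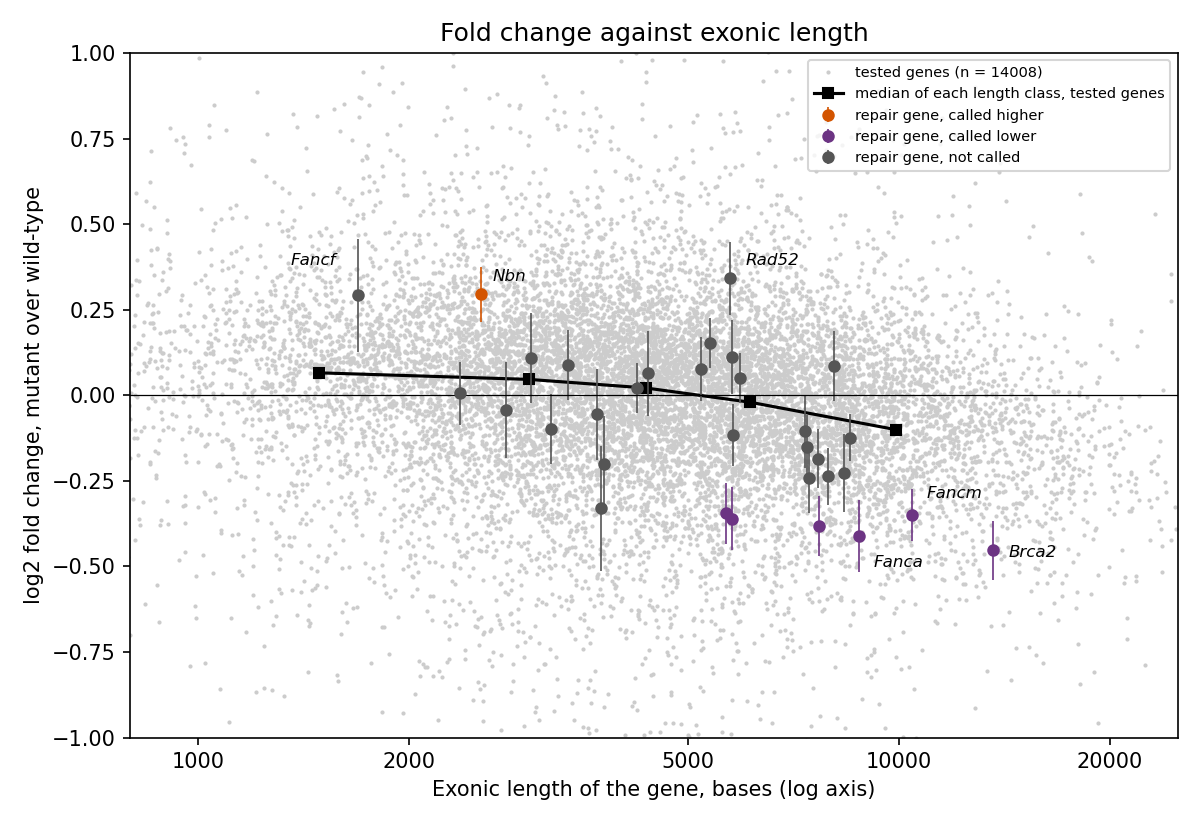
Log2 fold change (mutant over wild-type) against exonic length in bases (log axis) for tested genes (grey), the median of each of 5 length classes (black squares) and the 32 repair genes with bars of 1 SE; the vertical axis spans -1 to 1, and genes beyond the axes are not drawn. The class medians decline with length to -0.10 in the longest class, and Brca2, Fancm and Fanca lie below that line.

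Some members overlap other genes, and since no source used here says whether counting used strand, reads from the opposite strand may be included. Of the 6 called lower, Fanci shares 16.0% of its exonic bases with Polg, Rad54l 15.4% with Lrrc41 and Fanca 10.5% with Zfp276, each on the opposite strand. None of the partners was called, with log2 fold changes of -0.21 (SE 0.0817) for Polg, 0.17 (SE 0.0798) for Lrrc41 and -0.15 (SE 0.105) for Zfp276. Polg averaged 115 CPM in mutant pools and 133 CPM in wild-type pools, Lrrc41 73.6 and 65.4, and Zfp276 22.0 and 24.5. The part of such reads in the fold changes of members was not tested. Fancm shares 7.07% of its exonic bases with Gm47869 and Gm47870, which were not among the tested genes. Brca2 shares 0.301% of its exonic bases with another gene, and Bard1 and Nbn none. Among the 25 members that share at most 10%, 3 were called lower and 1 higher. Among the 7 that share more, 3 were called lower and none higher. Over all tested genes 3.88% were called lower and 2.65% higher.

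**Figure D4:**
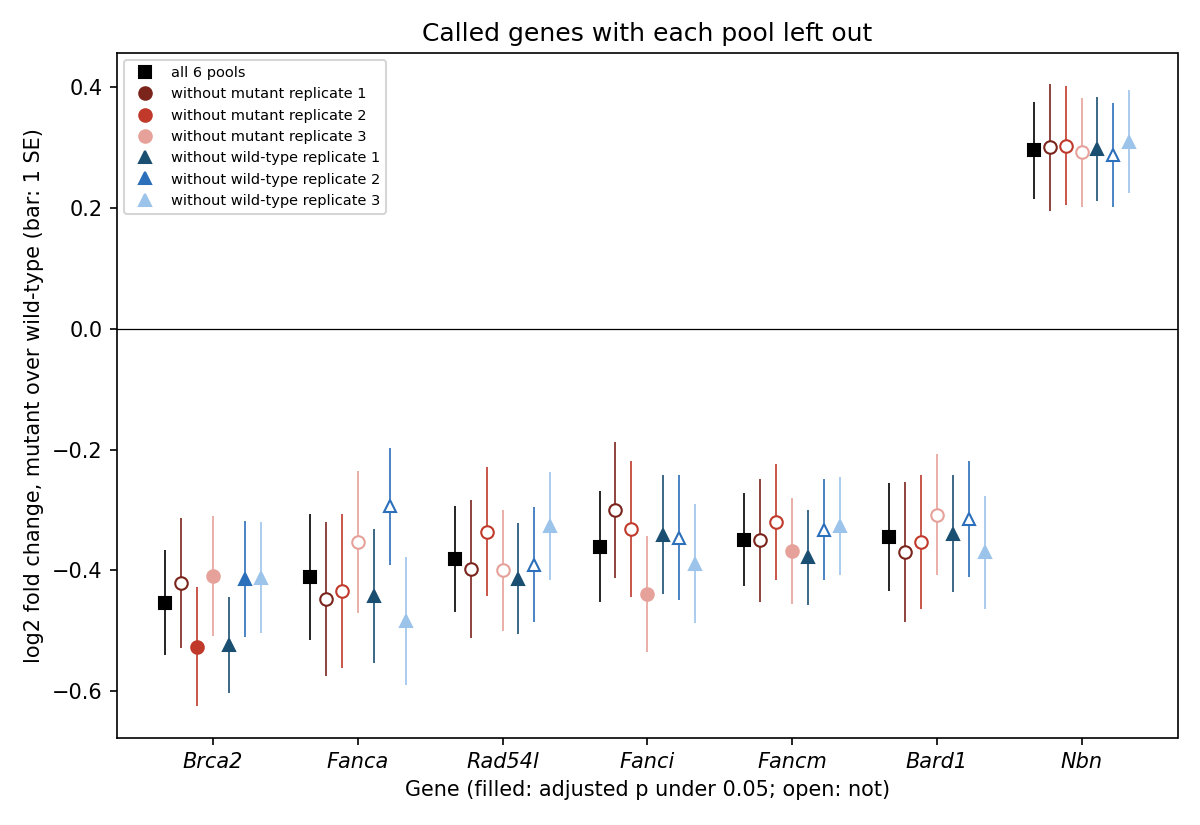
Log2 fold change (mutant over wild-type, bars of 1 SE) of the 7 called members with all 6 pools (black squares) and with each mutant pool (circles) or wild-type pool (triangles) left out; filled symbols passed an adjusted p of 0.05 and open ones did not. The values kept their sign throughout, while without mutant replicate 1 all 7 symbols are open.

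Genes that work beside the set were called at a share close to that of all genes. Of 133 other genes of repair and replication in 8 lists, 132 were matched and tested, of which 3 rose, 6 fell and 123 did not pass (6.82% called, beside 6.52% of all tested genes). Their median log2 fold change was 0.00. None of 14 further Fanconi genes passed. The smallest p-values there belonged to Mad2l2 (-0.35, edgeR adjusted p = 0.103), a subunit of a bypass polymerase and of shieldin, and the nuclease gene Fan1 (-0.29, edgeR adjusted p = 0.196). None of 5 genes of the BRCA1-A complex passed either, with Brcc3 at -0.19 and Babam1 at -0.16.

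Among 33 further recombination genes 1 rose and 1 fell. Fignl1, which encodes an AAA ATPase, had 140.4, 133 and 152 CPM in mutant pools and 97.9, 100.2 and 110.2 CPM in wild-type pools. It rose by 0.46 on the log2 scale (SE 0.0784, edgeR adjusted p = 0.00257), and the call held with any 1 pool left out. Mus81, the gene of a structure-specific nuclease, had 13.4, 15.3 and 16.0 CPM in mutant pools and 21.5, 21.5 and 19.2 CPM in wild-type pools. It fell by 0.48 on the log2 scale (SE 0.118, edgeR adjusted p = 0.0239), a call lost with DESeq2, in the 4 pools with Y-linked reads, or when wild-type replicate 2 or mutant replicate 1 or 2 was left out.

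Of 20 genes of checkpoint signalling 2 fell. Mdc1, a scaffold that binds marked chromatin at breaks, had 90.8, 102 and 88.6 CPM in mutant pools and 135, 131 and 128 CPM in wild-type pools, and fell by 0.48 (SE 0.0758, edgeR adjusted p = 0.00138). Its call held with any 1 pool left out. Trp53bp1, which protects ends from trimming, fell by 0.28 (SE 0.0742, edgeR adjusted p = 0.0349). Settings that ended that call included the length and GC correction (-0.13), the use of pools holding Y-linked reads alone, and leaving out any 1 mutant pool or wild-type replicate 2. In this gene 15.04% of exonic bases lie opposite Tubgcp4.

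In 13 tested genes of end joining and shieldin Shld2, a shieldin subunit gene, rose and Prkdc, the gene of the DNA-dependent protein kinase, fell. Shld2 averaged 14.9 ± 0.867 CPM in mutant pools and 10.3 ± 0.458 CPM in wild-type pools (SD, n = 3 each; log2 fold change 0.55, edgeR adjusted p = 0.021), a call lost when only pools holding Y-linked reads were used, and without mutant replicate 1 or 2. Prkdc averaged 66.3 ± 6.26 CPM in mutant pools and 87.5 ± 4.28 CPM in wild-type pools (-0.40, edgeR adjusted p = 0.0127), a call that needed wild-type replicate 2 and mutant replicates 1 and 3. Polk, a damage bypass polymerase gene, was the only 1 of 11 bypass genes to pass. It had 20.4, 21.5 and 15.2 CPM in mutant pools and 10.1, 12.0 and 10.7 CPM in wild-type pools, a rise of 0.82 (SE 0.145, edgeR adjusted p = 0.00337) that held with any 1 pool left out.

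Of 12 further cohesin genes only Pds5b, a regulator of cohesin release, passed (-0.37, edgeR adjusted p = 0.0224). Of 24 genes listed for the replication fork and for entry into S phase, only Pole, the leading-strand polymerase gene, passed (-0.36, edgeR adjusted p = 0.0207). Leaving out wild-type replicate 2 or any 1 mutant pool ended both calls, and that of Pole also after the length and GC correction (-0.24). The 24 genes of that list summed to 4870, 4960 and 5144 CPM in mutant pools and to 5066, 4644 and 4988 CPM in wild-type pools. These groups overlapped. The 32 members summed to 1563, 1575 and 1562.5 CPM in mutant pools and to 1629, 1697 and 1702 CPM in wild-type pools. Differences in the cell cycle were not tested.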

How the data were processed

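Each pool came with 1 file of raw counts per Ensembl gene, deposited by the authors as integers without normalization; the labels' protocols name a TruSeq total RNA kit. The submitters' processing notes list mm10 (GRCm38) as the build, and no source used here names the aligner, counting program, annotation or use of strand. Of 54532 IDs, 54495 matched GENCODE M21, the source of symbols, positions, exonic lengths and GC content. Exonic length counts every base that any annotated exon of a gene covers. Samples were grouped by title. Genes were kept with edgeR's filterByExpr (14008), scaled by TMM and tested two-sided by quasi-likelihood (glmQLFit with robust estimation, glmQLFTest), with p-values adjusted by Benjamini-Hochberg over all of them and a threshold of 0.05. Each SE is the absolute log2 fold change over the square root of F. The labels do not tie pools to litters, so errors measure the spread between these pools, which all differed by more than counting noise (chi-square over its degrees of freedom between 2.81 and 9.19). The members, the 8 other lists, the named-gene rule (all members, Sf3b4, and per list up to 4 genes that passed or else the 2 of smallest p) and the tests were chosen with earlier results of these data known. The fits were tested on simulated counts. Versions were edgeR 4.0.16, DESeq2 1.42.0 and limma 3.58.1 under R 4.3.3, with Python 3.11.15. Alternatives were DESeq2, limma-voom, other scaling, other filters, no robust estimation, a replicate block, leaving out each pool, a looser threshold of 0.1, a correction for length and GC content (splines with 4 degrees of freedom each, as an offset), Y-linked reads as a covariate and the 4 pools with such reads.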

Additional observations from a re-analysis of the deposited data

How the results depend on the processing

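The median log2 fold change of the 32 genes stayed between -0.13 and -0.05 in every alternative, and no called member changed sign. The 6 lower calls numbered 4 to 7 in the alternatives that kept all pools or the 4 with Y-linked reads, and 0 to 6 with 1 pool left out; the higher calls then numbered 0 to 1. No member was called higher with DESeq2, library size alone, the replicate block or the 4 pools with Y-linked reads (0 each), and 2 were with Y-linked reads as a covariate and at a threshold of 0.1. Over all genes 1804 were called with that covariate, 535 in the 4 pools, 1550 at 0.1, and 230 to 1810 with 1 pool left out. Of the 132 other genes 6 rose and 13 fell with the covariate, 5 and 11 at 0.1, and 6 rose without a filter on low counts; with 1 pool left out 2 to 7 rose and 1 to 11 fell. A filter of 1 CPM in 3 pools kept the same 14008 genes and so tested nothing; one of 2 CPM, chosen after seeing the data, gave the same 6 lower and 1 higher member. No pairing of pools by replicate number was seen, though with 3 pools per genotype the check cannot exclude one. Deviations of same-numbered pools correlated at -0.16, 0.05 and -0.06, and none of the 3 mutant pools correlated best with its own number. The largest value, 0.27, joined mutant replicate 3 and wild-type replicate 1, which held 1 Y-linked read each. With the replicate block 694 genes and 4 members, all lower, were called, and the calls of Fanci, Bard1, Nbn and Trp53bp1 were lost. The causes of these shifts were not tested. Rad51b, read by 56 to 117 counts per pool, had the largest SE of the members (0.182) and the largest SD of log2 CPM within genotypes (0.253); depth and the spread between pools were not told apart.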

Other observations

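Members often start close to a gene on the opposite strand. A coding gene began within 1000 bases upstream, head to head, in 10 of 32 members (31.2%), beside 10.1% of 12570 tested coding genes. The closest was Emc3 at 30 bases from Fancd2, followed by Dctn5 at 56 bases from Palb2, Brix1 at 71 bases from Rad1, Tex14 (not tested) at 111 bases from Rad51c and Pomgnt1 at 150 bases from Rad54l. Of the 8 neighbours that were tested, Zfyve26, 978 bases from Rad51b, was the only one called (-0.42, SE 0.105, edgeR adjusted p = 0.0265). Pomgnt1, opposite Rad54l, averaged 41.2 CPM in mutant pools and 50.1 CPM in wild-type pools (-0.28, SE 0.098, edgeR adjusted p = 0.0965), and Emc3 averaged 43.4 CPM in mutant pools and 41.3 CPM in wild-type pools. Nbr1, opposite Brca1, averaged 131 CPM in mutant pools and 136 CPM in wild-type pools, a log2 fold change of -0.06. Chromosome 11 carried 6 of the 32 members, and none of those was called, where 6.52% of all tested genes were. Nothing is read from that count.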
